A study of Mus musculus with 4 samples.

Results

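Skin given platelet-rich plasma alone, labelled PRP, was compared with the reference skin labelled NC in 1 mouse library each. The comparison took every gene of the deposited table whose level reached 1 FPKM in PRP, in NC or in both, which was 13533 of 25571 genes. FPKM is the number of sequenced fragments scaled to transcript length and to library depth. The difference of a gene is given as the log2 of the ratio of FPKM + 1, PRP over NC, and is called the log2 difference. A gene is called higher or lower where that ratio reached 2-fold, and the added 1 FPKM understates the difference of low genes. With 1 library per group there is no replicate, no error between animals and no p-value, so every value describes these libraries and not the treatments.

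The series profiled mouse skin RNA in 4 groups of 1 library each, and its title concerns hair regrowth with microneedles carrying platelet-rich plasma. The PRP label names the plasma alone, the MNs label microneedles alone, and the PRP-MNs label microneedles with the plasma. The meaning of NC is not spelled out in the labels. Strain, age, sex, dose, time of harvest, body site and the number of animals behind a library are likewise missing from the labels. The MNs and PRP-MNs libraries are given beside the main pair as levels, and their own difference shares no library with PRP against NC.

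Platelet-rich plasma is a concentrate of blood platelets that releases growth factors and chemokines and is injected into skin to promote repair or hair growth. Skin holds an epidermis of keratinocytes that mature outwards into a cornified barrier, a collagen-rich dermis with vessels, nerves and hair follicles, and beneath it fat and, in mice, a thin skeletal muscle. Interferons are secreted signals that switch on antiviral genes through STAT and IRF transcription factors, which bind interferon-stimulated response elements (ISREs) in promoters. Monocytes are blood cells that enter inflamed tissue and become macrophages, and they respond strongly to interferon.

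Promoter sequences are shown here because genes of the interferon response stood among the highest in PRP and genes of the cornifying epidermis among the lowest. They are RefSeq promoters on GRCm38.p6, 250 bases before to 50 bases after the gene start, written 5′ to 3′ on the strand of the gene. Capitals mark the ISRE core, GAAA, any 2 bases and a second GAAA, searched on both strands, in Isg15 at chr4:156200769-156201068 (minus strand), Ifit3 at chr19:34583279-34583578 (plus strand), Gbp3 at chr3:142559794-142560093 (plus strand), Fcgr4 at chr1:171018676-171018975 (plus strand) and Saa3 at chr7:46715627-46715926 (minus strand).
Isg15: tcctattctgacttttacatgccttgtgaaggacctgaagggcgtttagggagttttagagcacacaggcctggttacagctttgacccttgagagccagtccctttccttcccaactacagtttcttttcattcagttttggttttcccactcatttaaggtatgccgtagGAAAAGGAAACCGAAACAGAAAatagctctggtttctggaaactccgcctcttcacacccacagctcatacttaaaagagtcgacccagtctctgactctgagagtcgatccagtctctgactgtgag
Ifit3: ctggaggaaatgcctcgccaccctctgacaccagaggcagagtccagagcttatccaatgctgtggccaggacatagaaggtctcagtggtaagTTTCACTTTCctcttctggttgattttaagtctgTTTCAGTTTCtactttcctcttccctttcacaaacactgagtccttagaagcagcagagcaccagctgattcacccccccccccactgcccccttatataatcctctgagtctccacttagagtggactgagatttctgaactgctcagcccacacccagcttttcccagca
Gbp3: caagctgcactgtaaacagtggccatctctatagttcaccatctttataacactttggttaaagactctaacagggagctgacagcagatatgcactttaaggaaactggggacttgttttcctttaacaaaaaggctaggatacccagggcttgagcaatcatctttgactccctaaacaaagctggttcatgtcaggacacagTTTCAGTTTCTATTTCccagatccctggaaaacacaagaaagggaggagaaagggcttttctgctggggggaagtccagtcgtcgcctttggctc
Fcgr4: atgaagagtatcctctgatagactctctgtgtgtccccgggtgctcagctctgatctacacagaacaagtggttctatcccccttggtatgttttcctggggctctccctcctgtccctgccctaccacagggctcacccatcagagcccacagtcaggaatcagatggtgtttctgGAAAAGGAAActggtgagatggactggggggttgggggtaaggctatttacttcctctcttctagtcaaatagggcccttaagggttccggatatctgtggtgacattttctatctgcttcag
Saa3: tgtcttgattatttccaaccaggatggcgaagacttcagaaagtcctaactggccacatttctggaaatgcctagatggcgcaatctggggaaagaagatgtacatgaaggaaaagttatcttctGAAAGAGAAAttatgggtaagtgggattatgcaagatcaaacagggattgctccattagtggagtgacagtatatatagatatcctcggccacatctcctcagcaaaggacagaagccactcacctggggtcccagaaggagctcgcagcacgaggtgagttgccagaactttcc
Counted from the gene start, the matches began at −78, −72 and −66 in Isg15, at −156 and −122 in Ifit3, at −45 and −39 in Gbp3, at −73 in Fcgr4 and at −125 in Saa3. Matches in Isg15 and in Gbp3 shared one GAAA with their neighbour, so that several stood in a row.

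In a pair of epidermal promoters, chosen as AP-1 factors are known regulators of keratinocyte maturation, capitals mark the AP-1 motif TGANTCA, searched on both strands. Krtdap lies at chr7:30787655-30787954 (plus strand) and Ivl at chr3:92573686-92573985 (minus strand).
Krtdap: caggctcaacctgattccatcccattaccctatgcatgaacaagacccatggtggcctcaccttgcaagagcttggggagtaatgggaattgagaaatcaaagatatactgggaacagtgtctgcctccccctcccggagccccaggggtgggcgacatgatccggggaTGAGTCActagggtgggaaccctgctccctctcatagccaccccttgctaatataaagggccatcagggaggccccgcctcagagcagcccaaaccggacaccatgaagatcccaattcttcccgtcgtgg
Ivl: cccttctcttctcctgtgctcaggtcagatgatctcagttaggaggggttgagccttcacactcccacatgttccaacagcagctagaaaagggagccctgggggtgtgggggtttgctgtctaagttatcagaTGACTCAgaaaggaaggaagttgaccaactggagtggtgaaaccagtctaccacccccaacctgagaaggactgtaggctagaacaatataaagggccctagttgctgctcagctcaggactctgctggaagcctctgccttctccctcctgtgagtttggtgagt
The AP-1 match began at −81 in Krtdap and at −116 in Ivl. AP-1 matches are not marked in the promoters shown for the ISRE core, and Ifit3 holds such a match (tgattca). A match of letters is a description and does not show that a factor bound there.

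Low values moved in steps that corresponded to about 15.88 M fragments in PRP, 19.34 M in NC, 18.56 M in MNs and 17.26 M in PRP-MNs. At those depths 3 fragments on a transcript of 1 kb were 0.189, 0.155, 0.162 and 0.174 FPKM, a limit that covers counting error only. Mitochondrially encoded genes took 15.5% of the FPKM sum in PRP and 13.7% in NC. The keratinocyte gene Krt14, at 3700.3 against 3966 FPKM, and the collagen gene Col1a1, at 259 against 120.3 FPKM, marked both libraries as skin, and skeletal muscle genes were abundant in both libraries. Genes used as references were centred near level, with a median log2 difference of −0.02 over 14 genes and none called. The median was just above 0 under both rescalings of the libraries. Single reference genes ranged from −0.61 to 0.94, and Gusb was at 17.1 against 8.43 FPKM.

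More genes were higher than lower in PRP. Of 13533 genes, 1053 were higher (7.78%) and 197 lower (1.46%), and these percentages are the background against which the count of each list is read. The middle of all genes was at a log2 difference of 0.04, with quartiles of −0.23 and 0.38. Differences of at least 4-fold were found in 182 higher and 9 lower genes, and of at least 8-fold in 36 higher and 1 lower gene. A total of 239 of the higher genes were under 1 FPKM in NC and 55 of the lower genes under 1 FPKM in PRP, so these could be tested only through the library in which they were high. Near the threshold, Msn was called higher at 82.7 against 40.9 FPKM, Gfpt1 at 8.73 against 3.88 FPKM was not, Yod1 was called lower at 14.7 against 30.4 FPKM, and Cmtm8 at 2.64 against 6.27 FPKM was not.

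**Figure D1:**
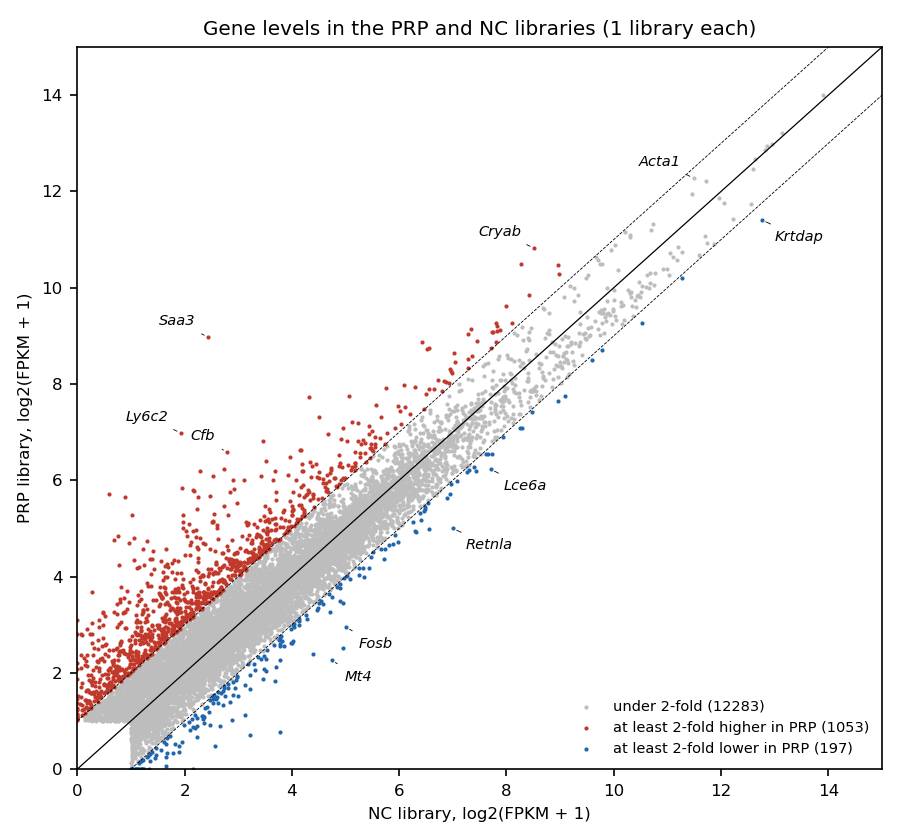
Each point is 1 of 13533 genes, with its level in the NC library on the x axis and in the PRP library on the y axis, both as log2(FPKM + 1). The solid line marks equal levels and the dashed lines 2-fold. The 1053 higher genes (red) reach farther from the line than the 197 lower genes (blue).

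The higher genes took 8.64% of the FPKM sum in PRP and 2.70% in NC. The lower genes took 1.65% in PRP and 3.83% in NC. Among genes that reached 100 FPKM in 1 of the libraries, 10.5% were higher and 3.27% lower, against 5.79% and 1.61% of genes that reached between 1 and 5 FPKM. Gains in FPKM were led by muscle genes and losses by keratinocyte genes, leaving out mitochondrial, predicted, assembled and antigen receptor genes. The mitochondrially encoded genes left out summed to 77585 FPKM in PRP and 70357 FPKM in NC. Acta1, the actin of skeletal muscle, gained 2086 FPKM between NC and PRP, and Krtdap, a secreted protein of suprabasal keratinocytes, differed by −4237 FPKM.

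The most strongly higher genes belonged to the acute-phase response, to monocytes and to the interferon response. Saa3, a serum amyloid A gene made locally in inflamed tissue, was at 501 FPKM in PRP, 4.40 in NC, 277 in MNs and 86.2 in PRP-MNs. NC was far below the other 3 libraries for this gene, and PRP was the highest of them. Cfb, complement factor B, was at 94.6 FPKM in PRP, 5.91 in NC, 44.8 in MNs and 106 in PRP-MNs. Timp1, an inhibitor of matrix metalloproteinases, was at 72.04 FPKM in PRP, 3.89 in NC, 74.2 in MNs and 139.6 in PRP-MNs. For both genes the 3 treated libraries lay between 44.8 and 139.6 FPKM and NC at or under 5.91 FPKM. On GRCm38 the genes lie on chromosome 7 from 46711998 to 46715700 (Saa3, minus strand), on chromosome 17 from 34856374 to 34862518 (Cfb, minus strand) and on the X chromosome from 20870166 to 20874735 (Timp1, plus strand).

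**Figure D2:**
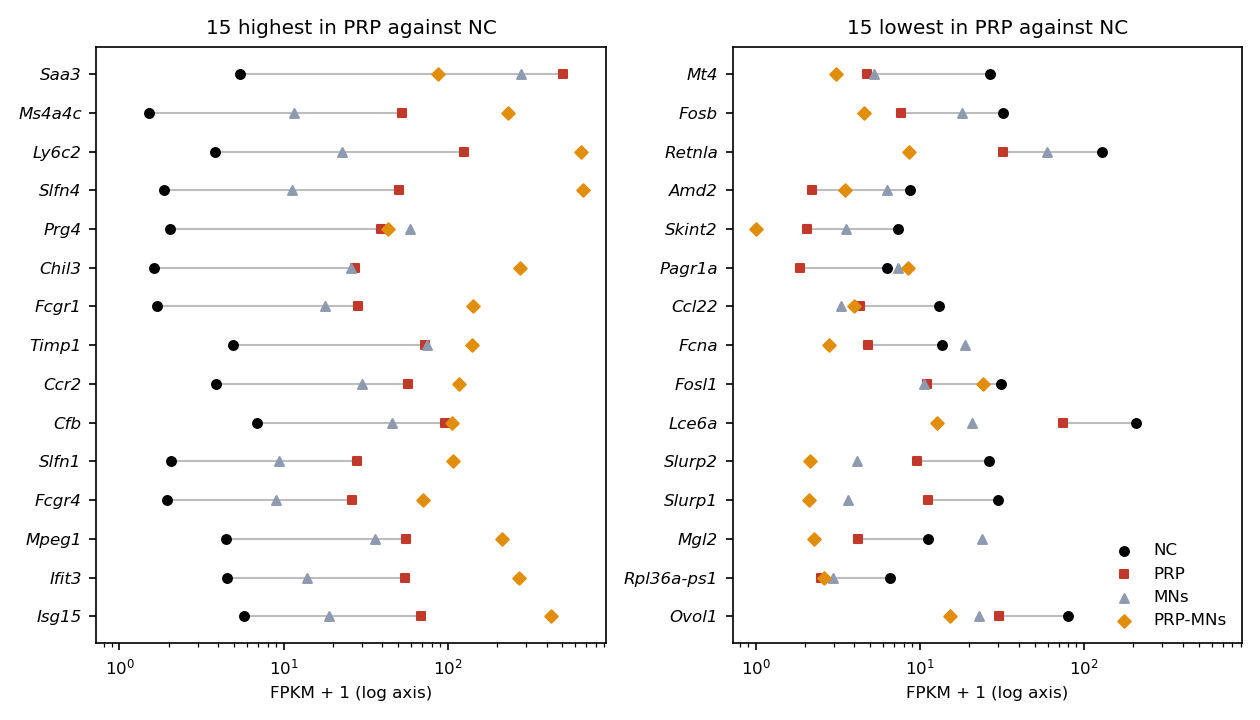
Levels in all 4 libraries of the 15 highest and the 15 lowest named genes of PRP against NC, as FPKM + 1 on a log axis, with a line joining NC (circle) and PRP (square). Saa3 runs from 4.40 FPKM in NC to 501 FPKM in PRP, and Mt4 from 25.8 FPKM in NC to 3.79 FPKM in PRP.

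The interferon response was higher in PRP from its sensors to its effectors, with smaller differences in most of its receptors. Sensors of foreign nucleic acid had 11 of 15 members higher and none lower, with a median log2 difference of 1.97. Zbp1, which binds left-handed nucleic acids and triggers cell death, was at 37.7 FPKM in PRP, 2.91 in NC, 14.3 in MNs and 136 in PRP-MNs. The RNA sensor gene Ddx58, which encodes RIG-I, was at 10.7 FPKM in PRP, 1.98 in NC, 8.23 in MNs and 46.3 in PRP-MNs, and the endosomal DNA sensor gene Tlr9 was at 4.20 FPKM in PRP, 0.226 in NC, 2.32 in MNs and 14.1 in PRP-MNs. PRP stood above NC for each of these and PRP-MNs was the highest library. The DNA sensor gene Cgas was level, at 2.62 against 2.55 FPKM.

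Of 11 interferon ligands and receptors, 6 reached 1 FPKM in PRP or NC, and 1 of them, the type I receptor chain Ifnar2, was higher at 17.1 against 6.80 FPKM. Its partner chain Ifnar1 was at 14.3 against 7.67 FPKM and the interferon-gamma receptor chain Ifngr1 at 58.2 against 33.2 FPKM. Of the ligands, 1 was measured, the keratinocyte interferon gene Ifnk, at 1.54 against 1.30 FPKM.

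Transducers and feedback genes had 9 of 15 members higher and none lower (median 1.18). Irf7, the interferon-induced transcription factor that amplifies the response, was at 111 FPKM in PRP, 9.98 in NC, 16.8 in MNs and 320.3 in PRP-MNs. The signal transducer gene Stat2 was at 13.6 against 4.18 FPKM, and Usp18, which restrains the receptor, at 10.8 against 2.66 FPKM. The members that act before any induction were close to level, the kinase gene Jak1 at 46.3 against 43.5 FPKM and the transcription factor gene Irf3 at 19.6 against 20.7 FPKM.

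All 23 antiviral effectors were higher in PRP, with a median log2 difference of 2.49, and 6 of them were under 1 FPKM in NC. Ifit1, whose protein binds foreign RNA, was at 19.2 FPKM in PRP, 1.08 in NC, 5.07 in MNs and 143 in PRP-MNs. Bst2, which tethers budding viruses to the cell, was at 83.4 FPKM in PRP, 10.5 in NC, 41.6 in MNs and 216 in PRP-MNs. Rsad2, which encodes viperin, was at 10.5 FPKM in PRP, 0.733 in NC, 2.36 in MNs and 201 in PRP-MNs. In each case the order was PRP-MNs, PRP, MNs and NC. The 5 Oas and Oasl genes, sensors and activators of RNA decay, had log2 differences between 2.34 and 2.92, and their summed level was 75.1 FPKM in PRP and 7.60 FPKM in NC.

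GTPases that interferon-gamma induces to attack intracellular pathogens were all higher (15 of 15, median 1.85), and 6 of them were under 1 FPKM in NC. Irgm1 was at 26.3 FPKM in PRP, 5.20 in NC, 13.9 in MNs and 95.2 in PRP-MNs, and Ifi47 was at 19.1 FPKM in PRP, 1.95 in NC, 10.2 in MNs and 90.2 in PRP-MNs. The 7 measured Gbp genes ranged from 1.16 to 2.25 in log2 difference. Reads of near-identical copies can be shared in the Ifi200, Gbp, Ifit, Tgtp, Ms4a and Sirpb1 families, so single values there are uncertain.

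Most genes of antigen presentation were under 2-fold. Of 18 genes of MHC class I presentation, 2 were higher and none lower (median 0.26). These were the immunoproteasome subunit gene Psmb8, at 31.8 against 14.3 FPKM, and Tapbp, the loading bridge tapasin, at 62.9 against 29.1 FPKM. The light chain gene B2m was at 1316 FPKM in PRP, 1077 in NC, 939.7 in MNs and 2020.4 in PRP-MNs, so that PRP-MNs stood apart rather than PRP. Of 8 genes of MHC class II presentation, 1 was higher (median 0.40), the protease gene Ctss at 214 against 32.3 FPKM, and the invariant chain gene Cd74 was at 367 against 269.7 FPKM.

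Monocyte genes had the highest median of the 83 gene lists. Of 19 measured markers of monocytes and inflammatory macrophages, 18 were higher and none lower, with a median log2 difference of 2.90. Their summed level was 1321 FPKM in PRP, 221 FPKM in NC, 871 FPKM in MNs and 4997 FPKM in PRP-MNs. A total of 7 of them were under 1 FPKM in NC. In whole skin, more cells of a type and more RNA per cell cannot be told apart, nor can fewer cells and less RNA per cell.

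Ccr2, the receptor that draws monocytes out of the blood, was at 56.3 FPKM in PRP, 2.89 in NC, 29.2 in MNs and 116 in PRP-MNs. Plac8, a gene of blood-derived monocytes, was at 211 FPKM in PRP, 18.9 in NC, 61.5 in MNs and 408 in PRP-MNs. Fcgr4, an activating Fc receptor, was at 24.98 FPKM in PRP, 0.956 in NC, 8.02 in MNs and 69.5 in PRP-MNs. PRP was above MNs for these 3 genes and PRP-MNs was the highest library. The exception in the list was the arginase gene Arg1 at 14.7 against 8.41 FPKM, and among higher members Msr1, a scavenger receptor, was at 11.9 FPKM in PRP, 1.26 in NC, 21.1 in MNs and 73.3 in PRP-MNs, with MNs above PRP. Mpeg1, the macrophage pore-forming protein, was at 54.8 FPKM in PRP, 3.45 in NC, 34.9 in MNs and 213 in PRP-MNs.

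Genes listed as shared among leukocytes, though not all made by every type, were higher in 11 of 12 cases (median 1.82). Their summed level was 652 FPKM in PRP, 228 in NC, 694 in MNs and 1861 in PRP-MNs. Ptprc, the CD45 gene, was at 22.1 FPKM in PRP, 4.92 in NC, 26.5 in MNs and 82.2 in PRP-MNs, so that PRP and MNs were close. The leukocyte genes thus moved together with the interferon and monocyte genes, and their part in those results was not tested.

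Markers of resident skin macrophages were divided, with 7 of 20 higher, 2 lower and a median of 0.53. Adgre1, the F4/80 gene, was at 24.4 against 4.18 FPKM, Cd68 at 79.7 against 17.1 FPKM, and the complement gene C1qb at 138 against 42.5 FPKM. Some of those of tissue-settled macrophages were under 2-fold, with F13a1 at 31.2 against 27.6 FPKM and Lyve1 at 6.57 against 7.84 FPKM. The lower members were Retnla, at 30.98 FPKM in PRP, 127 in NC, 58.7 in MNs and 7.55 in PRP-MNs, and Mgl2, a lectin of dermal macrophages and dendritic cells, at 3.20 FPKM in PRP, 10.2 in NC, 22.97 in MNs and 1.25 in PRP-MNs. Both were lowest in PRP-MNs.

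Fewer markers of the other immune cells were measured or called. Of 16 neutrophil markers 9 were measured and 3 were higher and none lower (median 0.77), the receptor Csf3r at 10.1 against 0.736 FPKM, the resistin-like gene Retnlg at 5.88 against 1.15 FPKM and Lcn2, which keratinocytes also make, at 74.6 against 5.65 FPKM. The listed neutrophil genes Mpo, Elane, Camp, Ltf, Ngp, Ly6g and Mmp8 did not reach 1 FPKM in PRP or NC. S100a9 was at 269.7 against 163 FPKM and is also a keratinocyte gene.

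Of 12 mast cell markers 6 were measured, 2 were higher and 1 lower, with 5 of the 6 above NC (median 0.84). The higher members were the carboxypeptidase gene Cpa3, at 17.7 against 7.01 FPKM, and Hdc, the enzyme of histamine synthesis, at 4.56 against 1.39 FPKM, and the lower one was the receptor gene Mrgprb2, at 5.81 against 12.9 FPKM. None of 9 Langerhans and dendritic cell markers was called, and their median of 0.17 turned negative with a filter of 5 FPKM. Cd207, which encodes the langerin of Langerhans cells, stood at 11.3 FPKM in PRP, 23.3 in NC, 4.43 in MNs and 0.970 in PRP-MNs, just under 2-fold, and NC was the highest library. Of 11 measured T cell markers 2 were higher and none lower, with 5 above and 6 below NC. The higher ones were the granule gene Gzmb and the growth factor gene Fgf7, which also stand in other lists. No T cell receptor component was higher. The receptor components Cd3e, at 2.54 against 5.33 FPKM, and Cd3g, at 9.68 against 17.1 FPKM, were among those below NC and were under 2-fold. Of 9 measured genes of natural killer cells and cytotoxicity 2 were higher and none lower, the granule genes Gzmb at 3.71 against 0.121 FPKM and Gzma at 3.88 against 0.348 FPKM, both low in every library.

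Chemokines that attract monocytes and lymphocytes were higher in PRP. Of 26 measured ligands, 15 were higher and 1 lower, with a median log2 difference of 1.53, and 7 of the 26 were under 1 FPKM in NC. The median was 1.02 without the filter on low values, over all 30 listed ligands. With a pseudocount of 5 FPKM it was under 2-fold. The CCR2 ligands Ccl2 and Ccl12 were at 20.8 FPKM in PRP, 3.04 in NC, 60.7 in MNs and 350.5 in PRP-MNs, and at 10.7 FPKM in PRP, 0.823 in NC, 13.8 in MNs and 112 in PRP-MNs, respectively. Cxcl13, which attracts B cells, was at 62.9 FPKM in PRP, 6.45 in NC, 16.04 in MNs and 10.1 in PRP-MNs. PRP was the highest library for this gene, unlike for Ccl2 and Ccl12. Cxcl10, an interferon-induced attractant of T cells, was at 12.8 FPKM in PRP, 1.91 in NC, 4.59 in MNs and 303 in PRP-MNs. Cxcl12, made by stromal cells, was at 53.02 FPKM in PRP, 12.1 in NC, 156 in MNs and 87.1 in PRP-MNs.

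Neutrophil attractants were low in both PRP and NC. Cxcl1 was at 2.04 against 2.44 FPKM and Cxcl2 at 6.43 against 2.93 FPKM, neither called. Cxcl5 was at 1.74 FPKM in PRP and listed at 0 in NC, and so was called higher at a low level. The lower member was Ccl22, which attracts regulatory T cells, at 3.34 FPKM in PRP, 12.1 in NC, 2.30 in MNs and 2.96 in PRP-MNs. The keratinocyte chemokine Ccl27a was at 17.3 against 29.8 FPKM.

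Most measured cytokines were below NC. Of 14 measured cytokines 10 were below NC, 3 of them lower, and 1 was higher (median −0.42). Tslp, an alarm cytokine of epithelia, was at 5.31 FPKM in PRP, 15.2 in NC, 2.73 in MNs and 1.59 in PRP-MNs. Il1f8, the IL-36 beta gene, was at 51.7 FPKM in PRP, 123 in NC, 19.3 in MNs and 14.6 in PRP-MNs, and Il34, a growth factor of Langerhans cells, was at 12.7 FPKM in PRP, 27.8 in NC, 10.04 in MNs and 6.07 in PRP-MNs. NC was the highest library for these 3 genes. The higher member was the macrophage growth factor Csf1 at 15.3 against 6.66 FPKM, while Il1b stood at 20.8 against 9.94 FPKM, Tnf at 2.48 against 2.80 FPKM and Il6 at 1.14 against 0.258 FPKM, none of them called.

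Receptors for IgG and their signalling partners were higher in 8 of 9 cases (median 2.28). Fcgr1, the high-affinity receptor, was at 27.5 FPKM in PRP, 0.699 in NC, 16.8 in MNs and 142 in PRP-MNs. The common gamma chain gene Fcer1g was at 124 against 24.6 FPKM. The inhibitory receptor Fcgr2b, at 31.6 against 9.25 FPKM, was also higher, and the neonatal receptor Fcgrt, at 34.3 against 21.6 FPKM, was the member under 2-fold.

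Acute-phase proteins, secreted carriers and inhibitors that rise in inflammation, had 10 of 14 members higher and 1 lower (median 2.05). Serpina3n, a protease inhibitor, was at 158 FPKM in PRP, 21.7 in NC, 377 in MNs and 112 in PRP-MNs. Haptoglobin (Hp), which binds free haemoglobin, was at 424 FPKM in PRP, 90.1 in NC, 684 in MNs and 539 in PRP-MNs. Saa1 was at 17.2 FPKM in PRP, 1.22 in NC, 5.42 in MNs and 3.11 in PRP-MNs and Saa2 at 17.95 FPKM in PRP, 0.711 in NC, 5.07 in MNs and 1.28 in PRP-MNs. For Saa1 and Saa2, as for Saa3, PRP was the highest of the 4 libraries, whereas MNs was the highest for Serpina3n and Hp. The lower member was Orm1, at 170.5 FPKM in PRP, 354 in NC, 41.4 in MNs and 32.5 in PRP-MNs.

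Complement genes were higher in 15 of 20 cases and lower in none (median 1.41). C3, the central component, was at 81.8 FPKM in PRP, 19.2 in NC, 125 in MNs and 50.2 in PRP-MNs. The receptor C3ar1, carried by myeloid cells, was at 19.6 FPKM in PRP, 1.61 in NC, 11.9 in MNs and 56.1 in PRP-MNs. The regulators on host cells Cd55, at 32.8 against 29.98 FPKM, and Cd59a, at 11.7 against 10.3 FPKM, were under 2-fold.

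Some higher genes lay side by side in the genome. Runs of at least 4 neighbouring tested genes that were all higher numbered 18 and held 101 of the 1053 higher genes. No such run of lower genes was found. Lower genes were fewer, at 1.46% of genes against 7.78%, so the numbers of runs cannot be compared. The number of runs to be expected at these shares was not calculated. The longest was the Ms4a cluster on chromosome 19 from 11067471 to 11604849, with 10 genes and a median log2 difference of 2.41. The Cd300 receptor cluster on chromosome 11 from 114890041 to 115133992 and the Ifi200 cluster of DNA sensors on chromosome 1 from 173468485 to 173942672 had 9 genes each, with medians of 1.71 and 2.58.

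The chemokine genes Ccl5, Ccl9, Ccl6, Ccl3 and Ccl4 formed a run of 7 with Wfdc17 and Wfdc18 on chromosome 11 from 83525778 to 83711348 (median 1.89). The Schlafen genes made a run of 5 on the same chromosome from 83002158 to 83215154 (median 2.55). The Ifit genes with Lipa made a run of 6 on chromosome 19 from 34492318 to 34650009 (median 2.52). Most of these runs are families of similar sequence, whose reads can be shared between members.

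**Figure D3:**
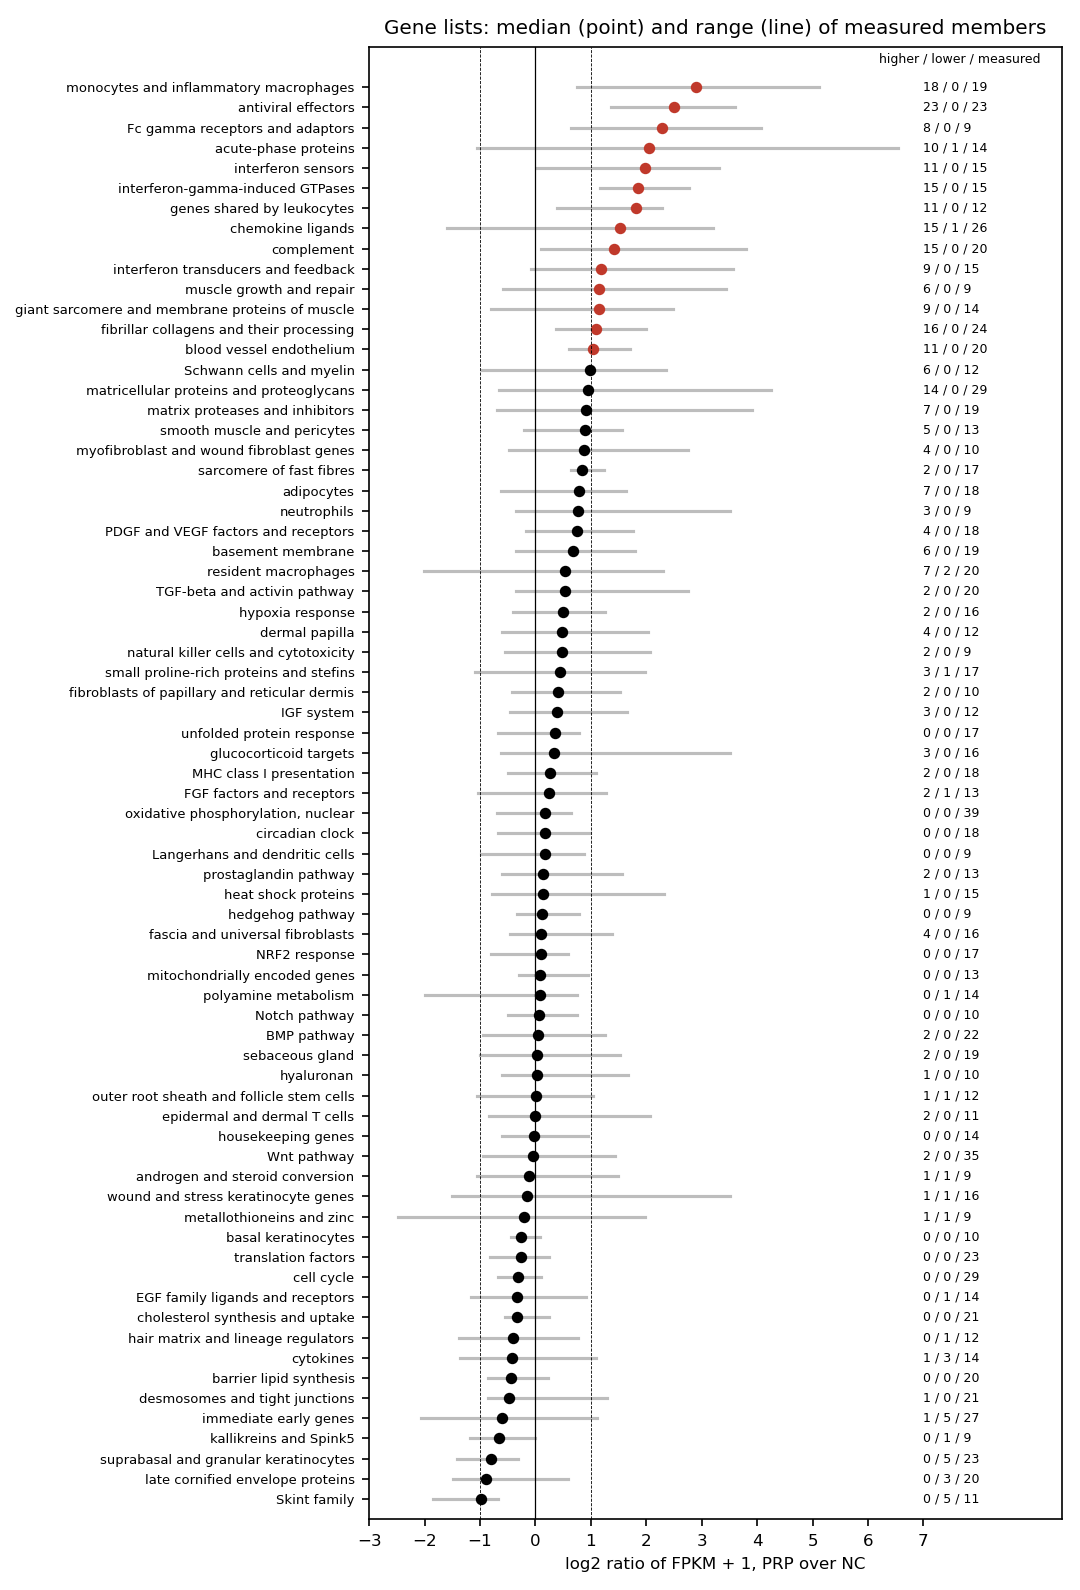
Median (point) and range (line) of the log2 difference, PRP over NC, for the 71 gene lists with at least 9 measured members, with the number of members higher, lower and measured at the right. Points at or above 1 are red. Monocyte genes and antiviral effectors are at the top, and the Skint family, late cornified envelope proteins and suprabasal keratinocyte genes are at the bottom.

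Genes of the dermal matrix were higher in PRP than in NC, and lower than in MNs for the main collagens. Of 24 measured genes of fibrillar collagens and their processing, 16 were higher and none lower (median 1.09). Col3a1, a collagen of young and healing dermis, was at 552 FPKM in PRP, 226 in NC, 1983 in MNs and 289.6 in PRP-MNs. Col1a1 was at 259 FPKM in PRP, 120.3 in NC, 1589 in MNs and 139 in PRP-MNs and Col1a2 at 319 FPKM in PRP, 156 in NC, 1796 in MNs and 133 in PRP-MNs. PRP thus lay above NC and under MNs. Serpinh1, the collagen chaperone HSP47, was at 129 against 44.1 FPKM, and Loxl1, which cross-links elastin, at 21.8 against 8.39 FPKM. The summed level of the list was 1637 FPKM in PRP, 712 FPKM in NC, 6691 FPKM in MNs and 1222 FPKM in PRP-MNs.

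Basement membrane genes were higher in 6 of 19 cases (median 0.69), and the anchors of the epidermis were not among them. Col4a1, the collagen of all basement membranes and abundant around vessels, was at 32.8 against 8.79 FPKM and the laminin chain gene Lamc1 at 35.6 against 11.3 FPKM. Col17a1, an anchor of basal keratinocytes, was at 120.5 against 154 FPKM and Col7a1, the anchoring fibril collagen, at 7.28 against 9.13 FPKM.

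Matricellular proteins and proteoglycans had 14 of 29 members higher and none lower (median 0.95). Prg4 was at 37.97 FPKM in PRP, 1.04 in NC, 57.8 in MNs and 42.3 in PRP-MNs. Spp1, which encodes osteopontin, was at 34.4 FPKM in PRP, 4.74 in NC, 38.4 in MNs and 545 in PRP-MNs. Periostin (Postn) went the other way, at 138 against 193 FPKM, under 2-fold. Of 10 measured myofibroblast and wound fibroblast genes 4 were higher and none lower (median 0.88). Ctgf, a connective tissue growth factor, was at 30.2 FPKM in PRP, 3.65 in NC, 34.4 in MNs and 29.2 in PRP-MNs, Cthrc1, a secreted protein of activated fibroblasts, was at 14.9 FPKM in PRP, 2.11 in NC, 18.1 in MNs and 13.03 in PRP-MNs, and Acta2, the smooth muscle actin of myofibroblasts and vessels, was at 50.8 against 16.5 FPKM.

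Fibroblast identity genes moved less than matrix genes, with 2 of 10 dermal fibroblast markers higher (median 0.40) and 4 of 16 fascia fibroblast markers higher (median 0.10). The fascia markers Pi16 and Dpp4 were at 42.6 against 40.8 FPKM and 13.9 against 16.04 FPKM. Matrix proteases and inhibitors were higher in 7 of 19 cases (median 0.91), with the stromelysin gene Mmp3 at 71.9 FPKM in PRP, 17.4 in NC, 225 in MNs and 94.1 in PRP-MNs. Mmp13, the collagenase, was level at 5.99 against 5.75 FPKM.

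Blood vessel markers were higher in 11 of 20 cases and lower in none (median 1.04), and 6 of the 20 were under 1 FPKM in NC. Pecam1, a junction protein of endothelium, was at 21.9 FPKM in PRP, 6.83 in NC, 46.5 in MNs and 79.1 in PRP-MNs. Eng, a TGF-beta co-receptor of endothelium, was at 15.4 FPKM in PRP, 3.997 in NC, 34.7 in MNs and 49.8 in PRP-MNs. In each case NC was the lowest and PRP the second lowest library. Smooth muscle and pericyte genes were higher in 5 of 13 cases (median 0.90), with Rgs5, a pericyte gene, at 39.6 FPKM in PRP, 13.3 in NC, 43.2 in MNs and 23.7 in PRP-MNs.

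Of 9 lymphatic genes 5 were measured and 1 was higher (median 0.58), Pdpn at 18.7 against 4.996 FPKM, which other cells of skin also express. Ccl21a, a chemokine of lymphatic vessels, was at 15.5 against 13.7 FPKM. Schwann cell and myelin genes were higher in 6 of 12 cases (median 0.99). Pmp22, a protein of peripheral myelin, was at 80.6 FPKM in PRP, 35.3 in NC, 136 in MNs and 106 in PRP-MNs. Globin genes, which mark blood in the sample, were higher by 1.41 to 1.45 in log2 difference, with a summed level of 1606 FPKM in PRP and 592 FPKM in NC. Red cell RNA thus moved with the vessel and leukocyte genes, and its part in those results was not tested.

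Platelet genes gave little to read, with 4 of 12 measured. Pf4, a platelet chemokine that macrophages also express, was at 70.9 FPKM in PRP, 21.7 in NC, 161 in MNs and 236 in PRP-MNs, and was the only one of the 4 called. The integrin gene Itga2b, more specific to platelets, was at 2.72 FPKM in PRP, 1.11 in NC, 2.72 in MNs and 1.37 in PRP-MNs.

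Contractile genes of fast muscle fibres were most abundant in PRP. The 17 genes of the fast fibre sarcomere all had a positive log2 difference (median 0.85), although only 2 passed 2-fold, and their summed level was 15275 FPKM in PRP, 8585 in NC, 7950 in MNs and 10041 in PRP-MNs. Myh4, the fastest myosin, was at 554 FPKM in PRP, 234 in NC, 256 in MNs and 290.2 in PRP-MNs. Of 10 slow fibre sarcomere genes 6 were measured and 1 was higher (median 0.53), with a summed level of 442 FPKM in PRP, 267 in NC, 366 in MNs and 496 in PRP-MNs. Genes of giant sarcomere and membrane proteins were higher in 9 of 14 cases (median 1.14). Xirp2, a repeat protein of stressed muscle, was at 146 FPKM in PRP, 36.6 in NC, 31.1 in MNs and 144 in PRP-MNs. Filamin C (Flnc), which is recruited to damaged sarcomeres, was at 97.9 FPKM in PRP, 16.8 in NC, 28.9 in MNs and 159.7 in PRP-MNs. Xirp2 and Flnc were high in both libraries that received PRP.

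Of 15 muscle growth and repair genes 9 were measured, and 6 of these were higher and none lower (median 1.15). The median of muscle growth and repair was 0.35 without the filter on low values, over genes that include those under 1 FPKM, and 0.57 with a pseudocount of 5 FPKM. Ankrd1, a stress-responsive ankyrin repeat protein of muscle, was at 25.7 FPKM in PRP, 1.46 in NC, 19.1 in MNs and 450.0 in PRP-MNs, and the myogenic factor Myog at 6.03 FPKM in PRP, 1.49 in NC, 3.65 in MNs and 81.9 in PRP-MNs. The growth arrest gene Gadd45a was below NC, at 8.31 against 13.03 FPKM, under 2-fold. Among other genes of muscle, Cryab, a small heat shock protein of muscle, was at 1809 FPKM in PRP, 364 in NC, 508 in MNs and 1457 in PRP-MNs. Csrp3, a mechanosensor of the sarcomere, was at 1434 FPKM in PRP, 308 in NC, 272 in MNs and 770.2 in PRP-MNs. Cryab and Csrp3 were highest in PRP, and Ankrd1 and Myog in PRP-MNs. The fast fibre sum also differed between the libraries, as given above, and the part of the amount of muscle in the values of these 4 genes was not tested.

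Fat genes were higher in 7 of 18 cases and lower in none (median 0.79). Cfd, the complement protease adipsin of fat cells, was at 401 FPKM in PRP, 128 in NC, 479 in MNs and 332 in PRP-MNs, and Adipoq, the hormone adiponectin, at 58.3 FPKM in PRP, 27.5 in NC, 58.5 in MNs and 48.8 in PRP-MNs. NC was the lowest library for both. Leptin (Lep) was level at 1.76 against 1.88 FPKM. The sebaceous gland list was centred on 0, with 2 of 19 higher (median 0.02, just under 0 when centred on the median of all genes), and these were Plin2, at 64.8 against 21.7 FPKM, and Pparg, at 11.8 against 4.12 FPKM, which fat cells and macrophages also express. The sebaceous genes Awat1, Elovl3 and Far2 were within 0.1 of level, with Far2 at 21.9 against 22.5 FPKM.

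Outside mitochondrially encoded genes, most of the largest losses in FPKM were genes of the maturing epidermis. None of 23 measured suprabasal and granular keratinocyte genes was positive, 5 were lower, and the median log2 difference was −0.80. Their summed level was 15805 FPKM in PRP, 29547 FPKM in NC, 5938 FPKM in MNs and 3207 FPKM in PRP-MNs. Krtdap was at 2709.9 FPKM in PRP, 6947 in NC, 1050.5 in MNs and 497 in PRP-MNs, on chromosome 7 from 30787896 to 30791097 (plus strand). Krt77, a keratin of sweat duct and suprabasal cells, was at 1182 FPKM in PRP, 2482 in NC, 205 in MNs and 132 in PRP-MNs. Calml3, a calmodulin-like protein of epithelia, was at 72.6 FPKM in PRP, 171 in NC, 89.6 in MNs and 11.5 in PRP-MNs. PRP was the second highest library for Krtdap and Krt77, but not for Calml3, where MNs lay above it.

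Basal keratinocyte genes were closer to level, with none of 10 called (median −0.26). Krt5 was at 1848 against 2348 FPKM, and the adhesion gene Itga6 at 64.7 against 61.3 FPKM. Of 16 measured wound and stress keratinocyte genes 7 were above and 9 below NC (1 higher, 1 lower, median −0.15). The wound keratins were under 2-fold, with Krt16 at 1184 against 715 FPKM, Krt6a at 923 against 646 FPKM and Krt6b at 895 against 536 FPKM above NC and Krt17, at 443 against 505 FPKM, below it. The gap junction gene Gjb2, also raised in activated epidermis, was the one higher member among 21 desmosome and junction genes (median −0.47), at 62.6 FPKM in PRP, 24.9 in NC, 80.9 in MNs and 162 in PRP-MNs.

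The cornified envelope families differed among themselves. All 13 Lce1 genes were below NC, with log2 differences between −1.07 and −0.73 and a summed level of 2318 FPKM in PRP and 4463 FPKM in NC. The 6 Lce3 genes, which are expressed in damaged epidermis, were spread around level, from −0.43 to 0.59. The Sprr2 genes, crosslinked proteins that stress induces, were positive in 9 of 10 cases, 3 of them higher, with a median of 0.71. Sprr2d was at 81.1 FPKM in PRP, 35.4 in NC, 9.35 in MNs and 44.3 in PRP-MNs. Lce1 and Sprr2 copies are similar in sequence and may share reads. Lce6a, which is not part of either family, was at 73.9 FPKM in PRP, 208 in NC, 19.7 in MNs and 11.8 in PRP-MNs.

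Genes that build or shed the barrier were mostly below NC and under 2-fold. The 20 barrier lipid genes had a median of −0.44 with none called and 4 above NC, with Elovl4, which extends very long chain fatty acids, at 212 against 300.1 FPKM. Klk8, a protease of the shedding layer, was at 92.3 FPKM in PRP, 210.0 in NC, 54.1 in MNs and 48.4 in PRP-MNs, the one lower member among 9 kallikrein and inhibitor genes (median −0.65). Slurp1, a secreted protein of the granular layer, was at 10.2 FPKM in PRP, 28.8 in NC, 2.66 in MNs and 1.12 in PRP-MNs, and Ovol1, a transcription factor of maturing keratinocytes, was at 29.5 FPKM in PRP, 78.5 in NC, 21.999 in MNs and 14.3 in PRP-MNs. Cholesterol synthesis genes had a median of −0.34 with none of 21 called.

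The Skint family, epidermal membrane proteins that select γδ T cells of the skin, was below NC in all 11 measured members, 5 of them lower, with a median of −0.99. The family summed to 241 FPKM in PRP, 502 in NC, 63.1 in MNs and 28.2 in PRP-MNs. Skint9 was at 62.3 FPKM in PRP, 134 in NC, 9.48 in MNs and 7.32 in PRP-MNs. The T cell receptor genes Cd3e and Cd3g, given above, were also below NC, and their part in this result was not tested.

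Single epidermal genes stood out among the lowest. Mt4, the metallothionein of stratified epithelia, was at 3.79 FPKM in PRP, 25.8 in NC, 4.24 in MNs and 2.09 in PRP-MNs, while the widely expressed Mt1 and Mt2 were at 215 against 120.2 FPKM and 307 against 214 FPKM. The zinc transporter gene Slc39a14, induced in inflammation, was higher at 10.7 against 1.98 FPKM. Defb6, a beta-defensin, was at 34.9 FPKM in PRP, 84.1 in NC, 95.1 in MNs and 3.51 in PRP-MNs, low in both libraries that received PRP. Amd2, a polyamine synthesis gene, was at 1.19 FPKM in PRP, 7.68 in NC, 5.29 in MNs and 2.48 in PRP-MNs, but its near-identical relative Amd1, with which reads may be shared, was at 39.96 against 46.9 FPKM.

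Immediate early genes, transcription factors and regulators that respond rapidly to stimuli, had 5 of 27 members lower and 1 higher (median −0.59). Fosb was at 6.71 FPKM in PRP, 31.2 in NC, 16.99 in MNs and 3.55 in PRP-MNs, Fosl1 at 9.99 FPKM in PRP, 30.1 in NC, 9.55 in MNs and 23.4 in PRP-MNs, and Nr4a1, an orphan nuclear receptor, at 34.1 FPKM in PRP, 75.97 in NC, 108 in MNs and 27.3 in PRP-MNs. The direction was not shared by all, since Fos was at 29.2 against 16.1 FPKM, Jun at 33.97 against 33.3 FPKM, Egr1 at 23.3 against 31.3 FPKM and Klf2, an endothelial flow-responsive factor, was higher at 12.7 against 5.37 FPKM.

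Hair follicle lists differed in direction, and those of the inner root sheath and hair matrix were mostly below NC. The 12 outer root sheath and follicle stem cell genes were centred on 0 (1 higher, 1 lower, 6 on either side), with Krt15 at 62.999 against 78.3 FPKM, Lgr6 lower at 2.23 against 5.69 FPKM and Tcf7l1 higher at 4.20 against 1.54 FPKM. All 7 measured inner root sheath genes were below NC and 3 were lower (median −0.99). However, 5 of the 7 reached 1 FPKM only in NC, and Tchh was at 0.928 against 4.15 FPKM. Of 12 measured hair matrix and lineage regulators 3 were above and 9 below NC, with 1 lower and none higher (median −0.41). The lower one was Ovol1, given above. Of 14 hair shaft keratins 1 reached 1 FPKM in PRP or NC (Krt84, 2.49 against 5.47 FPKM).

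Of 22 dermal papilla genes 12 were measured, and 4 of these were higher and none lower (median 0.48). Of the 12, 3 reached 1 FPKM only in PRP and 2 only in NC. The median was 0.12 without the filter on low values and 1.04 with a filter of 5 FPKM. Among the higher genes were Vcan at 8.57 FPKM in PRP, 1.33 in NC, 16.3 in MNs and 45.3 in PRP-MNs and Sox18 at 5.90 against 1.25 FPKM. Sox18 and Vcan are also made by vessels and by monocytes, respectively, and the part of those cells in these values was not tested.

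Of 18 measured PDGF and VEGF factors and receptors, 17 were above NC, 4 of them higher, and none was lower (median 0.75). Among factors that platelets also carry, Pdgfb was at 7.37 against 7.01 FPKM, Pdgfa at 8.38 against 5.27 FPKM, Vegfb at 18.4 against 12.8 FPKM and Tgfb1 at 17.6 against 10.1 FPKM, none called. The PDGF receptor genes Pdgfra and Pdgfrb were higher, at 15.6 FPKM in PRP, 4.75 in NC, 59.8 in MNs and 45.6 in PRP-MNs, and at 7.41 FPKM in PRP, 2.58 in NC, 27.1 in MNs and 19.5 in PRP-MNs. Nrp1, a co-receptor of VEGF, was at 11.7 FPKM in PRP, 2.73 in NC, 26.2 in MNs and 19.4 in PRP-MNs. NC was the lowest library for these 3 receptors and MNs the highest.

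Insulin-like growth factor genes were higher in 3 of 12 cases (median 0.38), Igf2 at 4.55 against 0.967 FPKM, Igfbp7, an abundant binding protein of vessels, at 90.6 against 28.3 FPKM, and Igf1 at a log2 difference of 1.02. Of 13 measured FGF factors and receptors 2 were higher and 1 lower (median 0.24), with Fgf7 higher at a log2 difference of 1.06, Fgf22, made in epidermis, lower at 4.03 against 9.30 FPKM, and Fgf23 at 1.40 FPKM in PRP and listed at 0 in NC. Of 14 measured EGF family ligands and receptors 10 were below and 4 above NC, with 1 lower and none higher (median −0.32). The lower one was betacellulin (Btc), at 5.09 FPKM in PRP, 12.7 in NC, 2.24 in MNs and 3.13 in PRP-MNs. The ligands Ereg and Epgn were just under 2-fold, at 61.8 against 121 FPKM and 54.01 against 106 FPKM, and the neuregulin gene Nrg1 was above NC at 1.88 against 0.549 FPKM.

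Wnt pathway genes had 2 of 35 members higher and none lower (median −0.04, just above 0 under both rescalings of the libraries), near the background of all genes. The epidermal ligands Wnt4, at 15.6 against 26.9 FPKM, and Wnt7b, at 15.2 against 26.3 FPKM, were below NC and under 2-fold, and the target Axin2 was level at 4.17 against 4.59 FPKM. The higher members were Tcf7l1 and the inhibitor Sfrp5, at 5.50 against 1.41 FPKM. BMP genes were higher in 2 of 22 cases (median 0.04, negative with a filter of 5 FPKM), the antagonist Chrdl1 at 11.2 against 4.12 FPKM and Fstl1 at 107 against 45.6 FPKM. Hedgehog and Notch genes had none called, with medians of 0.12 and 0.06 over 9 and 10 genes.

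Several basic programmes had no member called. These were the cell cycle (29 genes, median −0.32, with 27 negative), translation factors (23, −0.26), nuclear oxidative phosphorylation (39, 0.18), the circadian clock (18, 0.18), NRF2 targets (17, 0.09) and the unfolded protein response (17, 0.35). The cyclin gene Ccna2 was at 17.2 FPKM in PRP, 28.1 in NC, 19.3 in MNs and 13.96 in PRP-MNs and Mki67 differed by −0.49 in log2. The clock gene Dbp was at 22.4 against 16.7 FPKM. The hypoxia list had 2 of 16 higher, Bnip3, an inducer of mitophagy, at 88.1 against 37.4 FPKM and adrenomedullin (Adm) at 6.65 against 2.22 FPKM. Among heat shock genes Cryab was the only one called of 15, and Dnajb1 was at 35.1 against 61.2 FPKM. The Y-linked genes Ddx3y and Eif2s3y were at 25.6 against 29.6 FPKM and 47.4 against 40.6 FPKM, with none of 4 called.

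The PRP difference was then read again with microneedles, as PRP-MNs against MNs, which shares no library with PRP against NC. In that pair 13933 genes were tested, and 997 were higher (7.16%) and 1030 lower (7.39%). Of the 1053 genes higher in PRP than in NC, 1035 were also tested there, and 426 of these were higher (41.2%) and 80 lower (7.73%), with a median of 0.73. Of the 197 lower genes 145 were tested, 39 were lower (26.9%) and 7 higher (4.83%), with a median of −0.54. Over all 12991 genes tested in both pairs 6.24% were higher and 6.86% lower. The 2 differences correlated across genes (Pearson r = 0.38, Spearman rho = 0.28), as a description with no p-value, because genes of 1 library share its cells, its depth and its scaling and are not independent replicates.

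The genes higher in both pairs were led by interferon and monocyte genes. Slfn4, a Schlafen gene of myeloid cells, differed by 4.76 in PRP against NC and by 5.88 in PRP-MNs against MNs. For Ly6c2, a monocyte surface gene, the values were 5.05 and 4.85. Isg15, a ubiquitin-like interferon-induced protein, had 3.57 and 4.50, and Ccl4, a chemokine of macrophages, 2.07 and 5.72. All 23 antiviral effectors and all 15 interferon-gamma-induced GTPases were higher in both pairs, and their medians with microneedles were 3.34 and 2.17. All 19 monocyte markers were higher with microneedles (median 2.85). These lists were chosen with earlier results of these data known.

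Lower in both pairs were Defb6, at log2 differences of −1.24 and −4.41, Mgl2, at −1.41 and −3.41, Fcna, a lectin of macrophages, at −1.51 and −2.74, and Fosb, at −2.06 and −1.98. Fosl1 was lower in the first pair (−1.50) and higher in the second (1.21).

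The matrix changed sides between the pairs. Fibrillar collagens and their processing had 16 of 24 members higher in PRP than in NC, and none higher and 13 lower in PRP-MNs than in MNs, with medians of 1.09 and −1.06. Col1a1 differed by 1.10 and −3.51, Col3a1 by 1.28 and −2.77, and Ctsk, a collagen-degrading protease, by 1.46 and −3.74. The levels show MNs as the library apart, with Ctsk at 81.2 FPKM in PRP, 28.9 in NC, 434 in MNs and 31.6 in PRP-MNs. Of 14 acute-phase genes, 10 were higher and 1 lower in PRP than in NC. In PRP-MNs against MNs 1 was higher and 4 lower, and the others were under 2-fold. The medians were 2.05 and −0.27. Saa3 differed by 6.54 and −1.67 and Lbp, which binds bacterial lipopolysaccharide, by 1.65 and −2.997. Lbp, like Ctsk, Col1a1 and Col3a1, was among the genes picked for this change of sides. Whether the effect of PRP differs with microneedles was not tested, since each group has 1 library.

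**Figure D4:**
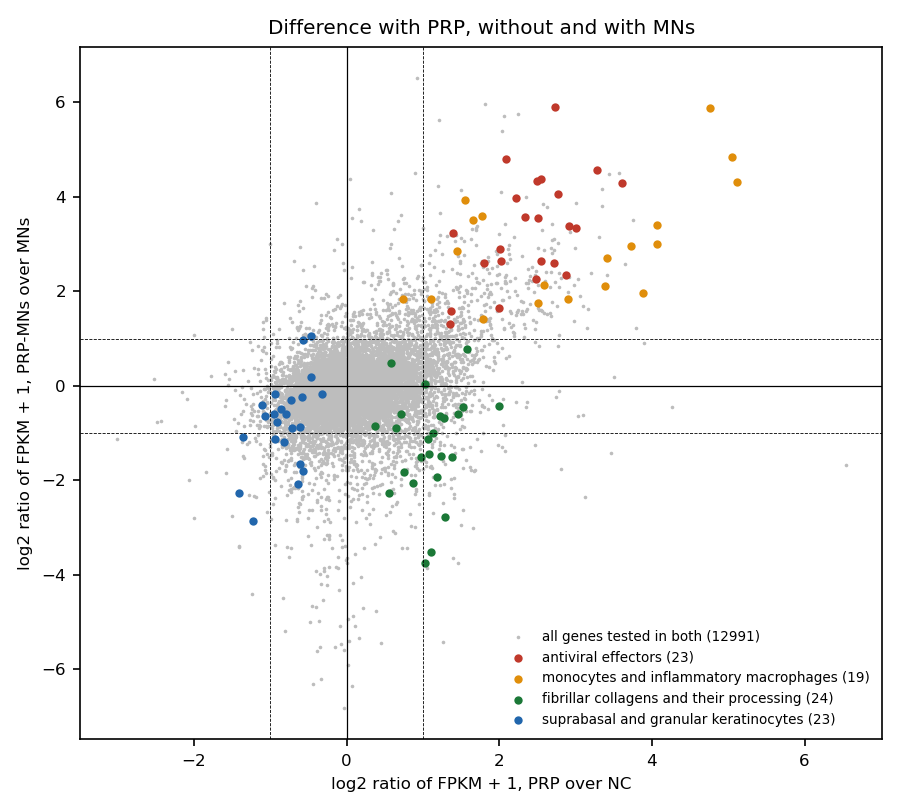
Each point is a gene tested in both pairs, with its log2 difference of PRP over NC on the x axis and of PRP-MNs over MNs on the y axis, and dashed lines at 2-fold. Antiviral effectors (red) and monocyte genes (orange) lie at the upper right, collagen genes (green) are positive on the x axis and mostly negative on the y axis, and suprabasal keratinocyte genes (blue) are negative on the x axis.

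ISRE cores were more frequent in promoters of the higher genes. Of the 13533 tested genes, 10025 had a promoter in the RefSeq table, and 324 of these (3.23%) held the core in its 300 bases. The share was 79 of 740 genes higher in PRP (10.7%), 39 of 133 genes at least 4-fold higher (29.3%) and 1 of 91 lower genes (1.10%). Of genes with the core 24.4% were higher in PRP, against 6.81% of those without it. By list, 9 of 17 antiviral effectors (52.9%), 9 of 10 interferon-gamma-induced GTPases (90.0%) and 3 of 15 monocyte markers had the core. Among genes between 2 and 3 in log2 difference the share was 31.1% of 103 promoters, and at 3 or more it was 23.3% of 30.

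The AP-1 motif was more frequent at both ends. It stood in 565 of 10025 promoters (5.64%), in 15 of 91 of the lower genes (16.5%) and in 79 of 740 of the higher genes (10.7%). By list, 8 of 20 suprabasal and granular keratinocyte genes (40.0%) and 7 of 17 antiviral effectors (41.2%) had it. It was thus not particular to the epidermal genes. The GAS motif TTCNNNGAA, which STAT dimers bind, was in 6.81% of all promoters, 8.92% of those of higher genes and 8.79% of those of lower genes. It stood in 6 of 10 interferon-gamma-induced GTPases and 5 of 17 antiviral effectors. In the same order, the E-box CACGTG was in 10.1%, 5.95% and 4.40% of all, higher and lower genes. The cyclic AMP response element TGACGTCA was in 3.15%, 1.22% and 3.30%, and the metal response core TGCNCNC in 59.1%, 55.3% and 51.6%. All motifs were searched on both strands. ISRE and GAS matches shared bases in 9 promoters, and AP-1 matches shared bases with GAS matches in 3 and with E-boxes in 11. Matches in other windows were not searched.

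**Figure D5:**
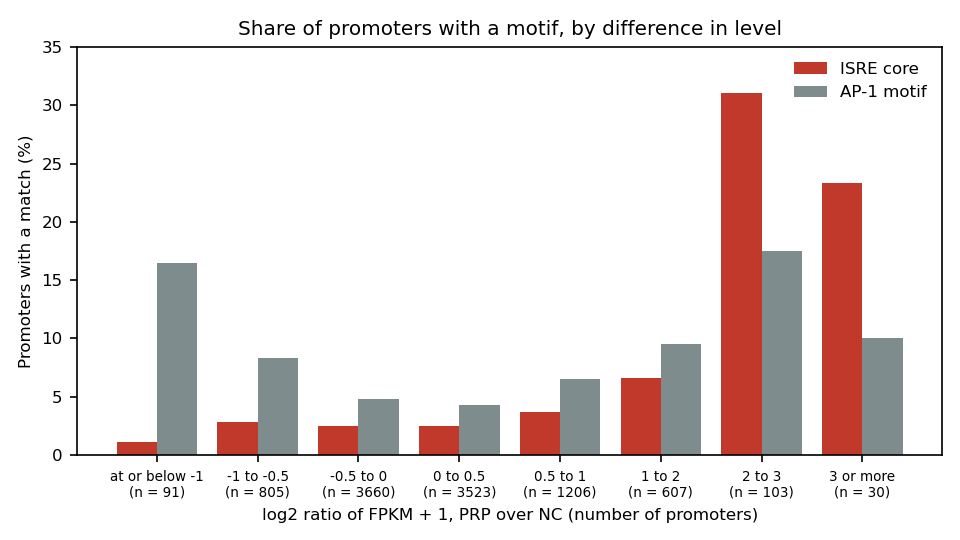
Share of 300-base promoters, in percent, that hold an ISRE core (red) or an AP-1 motif (grey), for genes grouped by their log2 difference of PRP over NC, with the number of promoters under each pair of bars. The ISRE share is between 1.10% and 6.59% in the groups under 2 and at 31.1% between 2 and 3, and the AP-1 share is lowest, at 4.26%, between 0 and 0.5.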

How the data were processed

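RNA from mouse skin was sequenced as 1 library for each of 4 groups. Libraries used 1 μg of RNA and the NEBNext Ultra kit, per the labels' protocols. GRCm38 is the build that the submitters' processing notes name. Aligner, counting tool, annotation and use of strand: not given in the sources used here. Genes that overlap on opposite strands may therefore share reads. The values analysed were the authors' deposited FPKM, scaled to transcript length and library depth. The table held 25571 genes, of which 3535 were models assembled from the reads. Of 22036 Ensembl identifiers, 22022 matched GENCODE release M21 (GRCm38), and 27 symbols that had become dates were restored.

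Genes at or above 1 FPKM in PRP or NC were compared by the log2 ratio of FPKM + 1 (pseudocount 1), and a ratio of at least 2-fold was counted, with no test because there is 1 library per group. Depth was estimated from steps between low values: in PRP, NC, MNs and PRP-MNs, 24.4%, 24.3%, 22.1% and 22.1% of these values were whole numbers of fragments to within 0.02, against 3.18%, 3.33%, 3.38% and 3.34% at other steps. Whole reads could not be recovered for most genes, so no count test was run. The calculation was tested on simulated data.

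The 83 gene lists held 1348 distinct genes, and 4 of 1448 entries were not analysed here. Some list members are not reported here. Members of a list under 1 FPKM in both libraries were not measured. The comparison and the lists were chosen with earlier results of these data known, so no list is independent evidence. Named genes were the 15 highest and 15 lowest at or above 5 FPKM in 1 library, without predicted, assembled, mitochondrial and antigen receptor genes, the 10 largest gains and losses in FPKM, the 10 highest and lowest shared with PRP-MNs against MNs, and, of every list, the 6 or fewer most different members and the 3 or fewer most abundant ones under 2-fold. The gains and losses left out the same kinds of genes. A further 10 were picked because they were higher in PRP than in NC and lower in PRP-MNs than in MNs. Genes beside the 2-fold threshold, Cgas, Fos, Jun, Egr1, Pdgfb and some other list members were added for their known roles after their values were seen. Promoters and motif positions came from RefSeq (GRCm38.p6) by symbol, and the promoters printed were chosen after the motif search. Computation used Python 3.11.15, numpy 2.4.6, pandas 2.3.3, scipy 1.17.1 and matplotlib 3.10.9. The 8 alternatives covered the pseudocount, the filter, the scaling and assembled models.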

Additional observations from a re-analysis of the deposited data

How the results depend on the processing

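No paired analysis was possible because each group has 1 library. No list median or named gene that was at least 2-fold in the main comparison changed direction under the alternatives run for it. The counts moved most with the pseudocount. With 0.1 FPKM in place of 1 FPKM, 1644 genes were higher and 432 lower in PRP than in NC, and 89 were lower with PRP in both pairs. With 5 FPKM, 433 were higher and 52 lower, 208 were higher in both pairs and 8 lower in both. A filter of 5 FPKM left 130 lower genes, 23 of them lower in both pairs. Main values were 1053, 197, 426 and 39, and with that filter fewer genes (9368) were tested. Without assembled models 1001 genes were higher and 139 lower. Rescaling to the same FPKM sum gave 1090 and 166, rescaling without mitochondrially encoded genes 1152 and 148 with a median of all genes of 0.11 in place of 0.04, and centring on the median 978 and 240. The share of higher genes among those called was between 79.2% and 89.3%, and 84.2% in the main comparison. The 83 lists and the named genes were run under 7 of the 8 alternatives. Of 580 list medians, 552 kept their side of 2-fold, and 18, from 11 lists under 2-fold, had another sign than in the main comparison, and these too were under 2-fold. Those of natural killer cells and of Langerhans and dendritic cells became negative with a filter of 5 FPKM. With a pseudocount of 5 FPKM the medians of interferon sensors, interferon transducers, chemokine ligands, fibrillar collagens, blood vessel endothelium and muscle growth and repair (6 lists) were under 2-fold. Of 50 named genes over 350 alternatives, 343 values kept their side, and those of Skint2 (−0.91), Pagr1a (−0.82), Mgl2 (−0.89) and Rpl36a-ps1 (−0.71) were under 2-fold with a pseudocount of 5 FPKM. Depth limits genes near 1 FPKM, and no alternative stands in for the missing replicates.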

Other observations

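A few of the lowest named genes belong to no group described above. Pagr1a, which encodes a cofactor of histone methylation complexes, was at 0.859 FPKM in PRP, 5.35 in NC, 6.34 in MNs and 7.48 in PRP-MNs, so PRP was the library apart. Rpl36a-ps1, a ribosomal protein pseudogene whose reads may be shared with its parent gene, was at 1.51 against 5.61 FPKM. Slc46a2, a membrane transporter, was at 7.04 FPKM in PRP, 15.5 in NC, 16.9 in MNs and 1.82 in PRP-MNs. Adtrp was at 15.1, 31.7, 37.3 and 7.02 FPKM in the same libraries. For Slc46a2 and Adtrp both libraries that received PRP were below both that did not.

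Coch, a secreted matrix protein, was at 6.11 FPKM in PRP, 1.97 in NC, 83.1 in MNs and 0.956 in PRP-MNs, above NC in PRP and below MNs in PRP-MNs. Cpz, a carboxypeptidase of the matrix, was at 5.63, 2.20, 25.4 and 0.820 FPKM, and Podn, a small proteoglycan, at 11.8, 4.86, 33.3 and 4.34 FPKM. Coch, Cpz and Podn were picked for this pattern, so it is not a result about them. Of the genes higher in PRP than in NC, 7.73% were lower in PRP-MNs than in MNs. That share was 6.86% over all genes tested in both pairs. Assembled gene models, which have no annotated function, were 52 of the 1053 higher genes and 58 of the 197 lower genes, although they were 719 of the 13533 genes tested.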
